A study of Mus musculus with 3 samples.

Results

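Transcripts of 10 heart muscle genes were followed in mouse otic placodal ectoderm that carried or lacked the growth factor genes Fgf3 and Fgf10. They are Tnni1, Tnnt2, Tnnc1, Actc1, Myh6, Myh7, Myl4, Myl7, Popdc2 and Unc45b, and every array probe named for one of them was taken, 15 probes for 10 of the 27670 gene names on the array. The genes were chosen with the ratios of these arrays in view, so their ratios are given as a description. Where a probe is said to be called, that is its result in the fit across all probes, and it is no independent support. Each array compared 1 pool of Fgf3-/-;Fgf10-/- placodes (double null, labelled with Cy5) with 1 pool of Fgf3+/-;Fgf10+/- placodes (double heterozygote, labelled with Cy3). There were 3 such arrays, called array 1, 2 and 3 after the labels' replicate numbers. Per the labels, each pool held 10 placodal ectoderms from embryos with 4 to 8 somites, no treatment was given, and total RNA was amplified before labelling. The heterozygotes also carried 1 mutant copy of each gene, and no wild-type placodes were compared here. The labels call the pools biological replicates. The errors given are moderated standard errors, which combine a probe's spread between these pairs of pools with the spread typical of all probes. They can therefore be smaller than the spread of a probe's own 3 arrays.

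The sarcomere, the contractile unit of striated muscle, is built from thin filaments of actin and thick filaments of myosin. On the thin filament the troponin complex switches contraction on and off: troponin C binds calcium, troponin I blocks the myosin sites, and troponin T ties the complex to tropomyosin. In the early embryo the heart tube is the first tissue to switch these genes on, and it then uses slow skeletal troponin I (Tnni1), cardiac alpha-actin and both cardiac myosin heavy chains together. The otic placode is head ectoderm that gives rise to the inner ear and is not a muscle tissue.

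The probes, all 60 bases long, determine which transcripts the values can speak of. The 2 Tnni1 probes and the 2 Myh6 probes lie in different parts of their transcripts, so each is a separate reading of its gene. Positions are those of the deposited scanner files on the mouse build mm7, and the sequences, also from those files, are written 5′ to 3′ in lower case. Tnni1, Tnnt2 and Popdc2 are shown because the largest ratios were theirs, and Myh6 for comparison.
Tnni1 A_52_P657360, chr1:135694939-135695814, plus strand: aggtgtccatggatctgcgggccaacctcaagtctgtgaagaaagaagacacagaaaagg
Tnni1 A_51_P435704, chr1:135693758-135694840, plus strand: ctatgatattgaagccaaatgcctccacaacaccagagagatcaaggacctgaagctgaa
Tnnt2 A_51_P338262, chr1:135737607-135737919, plus strand: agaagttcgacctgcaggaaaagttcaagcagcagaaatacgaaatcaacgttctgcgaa
Myh6 A_51_P512210, chr14:49811341-49812926, minus strand: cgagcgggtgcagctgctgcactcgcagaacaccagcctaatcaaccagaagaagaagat
Popdc2 A_51_P224311, chr16:38084906-38084965, plus strand: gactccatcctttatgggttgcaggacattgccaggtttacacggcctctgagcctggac

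The 2 Tnni1 probes share no run longer than 5 bases. The 2 Myl4 probes, in contrast, share 47 bases (capitals), and the 2 Myh7 probes share 55, so in those genes the second probe is nearly the same reading repeated.
Myl4 A_52_P544523, chr11:104693149-104693519, plus strand: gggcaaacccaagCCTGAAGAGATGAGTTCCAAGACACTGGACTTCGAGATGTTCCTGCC
Myl4 A_51_P413130, chr11:104693162-104693532, plus strand: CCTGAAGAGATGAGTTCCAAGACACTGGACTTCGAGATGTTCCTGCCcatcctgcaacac

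Of the 15 probes, 14 held at least 1 open reading frame over their whole length, while 21.7% of all probes on the array held none. For 8 probes the listed interval is longer than the probe, as it is where a probe lies across an exon junction. The cleavage signal AATAAA, which stands near the end of a transcript, was found on the printed strand in both Myh7 probes and the Myl7 probe, and in 4.8% of all probes. Its surroundings (signal in capitals) are shown because such probes may read the 3′ end of a transcript.
Myh7, 30 bases within chr14:49837280-49837339, minus strand: aggtggaagcagAATAAAgcaattttcctt
Myl7, 30 bases within chr11:5848640-5848699, minus strand: tgaggtcacctcAATAAActctgtgcctga

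None of the 15 probes shared 20 bases in a row with a probe of any other gene. Between the Myh6 and Myh7 probes, which belong to closely related neighbouring genes, the longest shared run was 6 bases.

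Each array held 43379 spots that were not controls, for 41174 probes, and between 26452 and 29177 of these spots were well above background in either channel. Log2 ratios of 2 arrays correlated with r between 0.36 and 0.41 across probes, which are not independent replicates. Markers of otic placode and head ectoderm were present. Of 16 listed genes 15 had a probe well above background in 1 channel on all 3 arrays, and Pax2 had none. The Fgf3 probe had log2 ratios of -0.69, -0.06 and -0.69 and the Fgf10 probe 0.31, -0.11 and 0.23 on arrays 1, 2 and 3. The sources used here do not say where these probes lie relative to the mutated parts of the genes. The dyes were not swapped, so a probe's dye effect and the genotype cannot be told apart. Nor can more muscle cells in a pool and more of these RNAs per cell. The arrays lay on 1 slide and were read in the same scan.

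Most of the heart contractile genes read higher in the double null, with Tnni1, Popdc2, Tnnt2 and Unc45b the highest and Actc1 and Tnnc1 close to 0. Of the 15 probes 14 were kept, because they were well above background in 1 channel on all 3 arrays. The mean log2 ratio of all 14 was above 0, although Tnnc1 and 1 Myh6 probe turned below 0 when arrays were centred on the median without loess. On all 3 arrays alike 12 of 14 were above 0, against 24.6% of all 25506 kept probes. The median log2 ratio of the 14 was 0.48, beside 0.01 over all kept probes. At a limma adjusted p under 0.05, 5 of 14 were called higher (both Tnni1 probes, Popdc2, Unc45b and 1 Myl4 probe) and 0 lower. Over all kept probes 1.20% were called higher and 0.282% lower. Since the genes were chosen on this contrast, nothing is read from these shares. From the processed signals of the scanner limma called none of the kept probes, members included, and 10 of the 14 had an unadjusted p under 0.05, beside 17.3% of all. Without array 3 the calls among the 14 were 2.

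**Figure D1:**
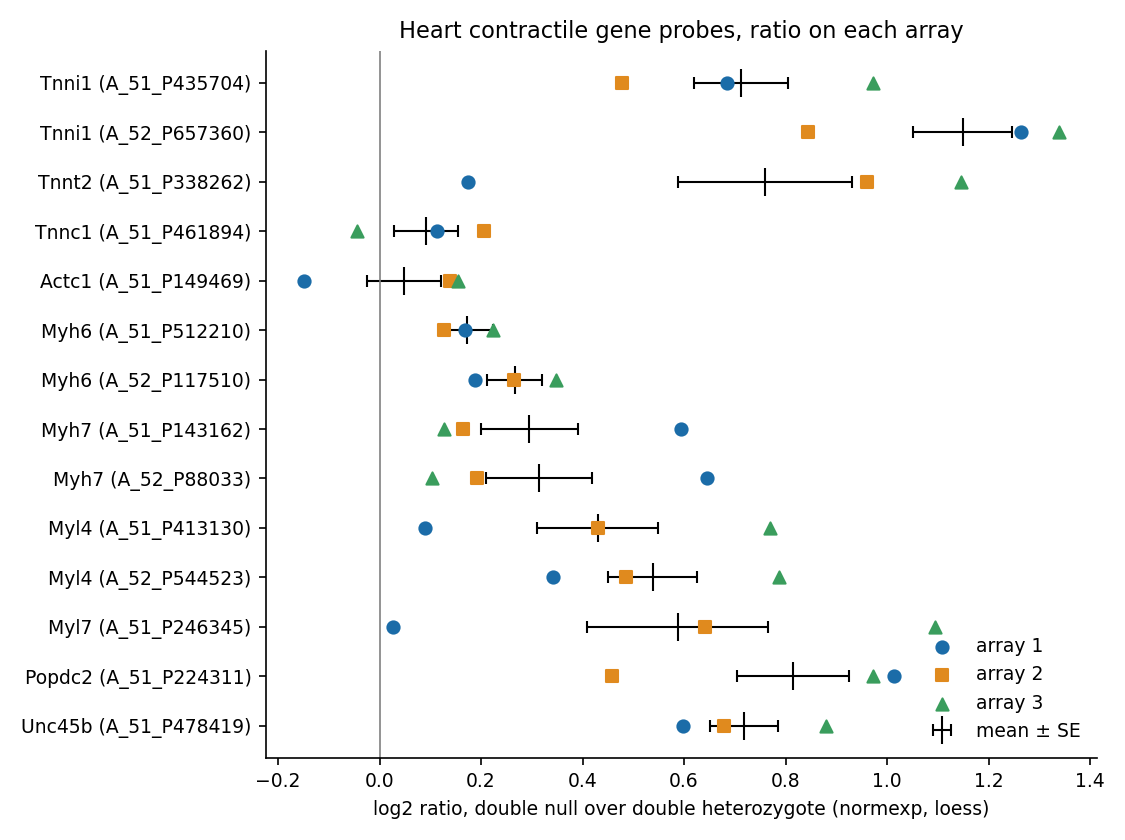
Log2 ratio of double null over double heterozygote (x axis) for each kept probe of the heart contractile genes (y axis), after normexp and loess. Points are arrays 1, 2 and 3 and the bar is the mean ± SE. Tnni1, Popdc2 and Unc45b lie above 0.4 on every array, while Tnnt2 and Myl7 have an array 1 value below 0.2 and Actc1 and Tnnc1 lie around 0.

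Tnni1, which encodes the troponin I of slow skeletal and embryonic heart muscle, had the largest ratio. At probe A_52_P657360 the processed intensity, the scanner's background-subtracted and dye-normalized signal, was 181.2, 54.16 and 203.4 in the double null pools of arrays 1, 2 and 3. It was 44.61, 7.054 and 53.62 in the double heterozygote pools. The genotypes did not overlap, but only narrowly: the double null pool of array 2 lay just above the highest double heterozygote pool. The double heterozygote signal was well above background on 2 of 3 arrays, not on array 2, so this probe was kept through its double null channel. Its log2 ratios after normexp and loess were 1.26, 0.84 and 1.34, a mean of 1.15 ± 0.10 (SE, n = 3), or 2.22-fold. Without array 2 the mean was 1.30.

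The size of this ratio differs with the treatment of background. From the processed intensities the log2 ratio was 2.02 on array 1 and 1.92 on array 3, where both channels were above background. The 2.94 of array 2 rests on a double heterozygote signal that was not, and the authors' deposited ratios hold no value there. Their mean over arrays 1 and 3 was 1.97. Normexp with an offset adds the same amount to both channels, which shrinks the ratio of a dim probe.

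The second Tnni1 probe, A_51_P435704, read a separate stretch and gave the same order. Its processed intensities were 86.2, 33.68 and 92.62 in the double null, against 26.82, 17.62 and 26.99 in the double heterozygote. Again the pools did not overlap, and array 2 was the lowest in both genotypes. The log2 ratios were 0.69, 0.48 and 0.97, with a mean of 0.71 ± 0.09 (SE, n = 3), and from the processed intensities 1.47 ± 0.19. Without array 3 the mean was 0.58 and the call was lost. The means of the 2 Tnni1 probes differed by 0.44 on the log2 scale.

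Tnnt2 encodes cardiac troponin T, and its ratio came from 2 of the 3 arrays. Probe A_51_P338262 had processed intensities of 130.7, 113.1 and 307.3 in the double null, against 116.3, 37.66 and 109.6 in the double heterozygote. The pools overlapped, since the double null of array 2 lay below the double heterozygote of array 1. The log2 ratio was 0.17 on array 1, 0.96 on array 2 and 1.15 on array 3, with a mean of 0.76 ± 0.17 (SE, n = 3). It was not called over the 3 arrays, and was called when array 1 was left out, at a ratio of 1.05. The other Tnnt2 probe, A_52_P430110 at chr1:135725272-135725331, was not well above background in either genotype on any array and gave no ratio.

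Tnni1 and Tnnt2 lie side by side on chromosome 1, where the listed probe intervals are 29458 bases apart in mm7. RefSeq places 1 gene between them, Lad1, which encodes an anchoring filament protein of epithelia. Lad1 had log2 ratios of -0.40, 0.01 and 0.13, a mean of -0.09 ± 0.10 (SE, n = 3), and was not called.

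Tnnc1 encodes the calcium-binding troponin C of heart and slow muscle, and its values differed little between the genotypes. Its probe A_51_P461894 (chr14:28639821-28640237) gave 25.47, 19.82 and 25.91 in the double null, against 23.91, 14.81 and 26.71 in the double heterozygote. These intensities lie near background, and the double heterozygote was well above it on 2 of 3 arrays. The pools overlapped fully, and the log2 ratios were 0.11, 0.21 and -0.04, with a mean of 0.09 ± 0.06 (SE, n = 3).

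Actc1, the cardiac alpha-actin gene, had the ratio nearest to 0 of the 14 kept probes. Its processed intensities at A_51_P149469 (chr2:113789115-113790038) were 92.44, 102.9 and 106.6 in the double null, against 107.1, 88.58 and 90.15 in the double heterozygote. Array 1 ran opposite to the other arrays, and the log2 ratios were -0.15, 0.14 and 0.15 (mean 0.05 ± 0.07, SE, n = 3). Without array 3 the mean was -0.0050. Actc1 was also the steadiest member between pools, the highest being 1.15 times the lowest within the double null and 1.21 times within the double heterozygote.

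**Figure D2:**
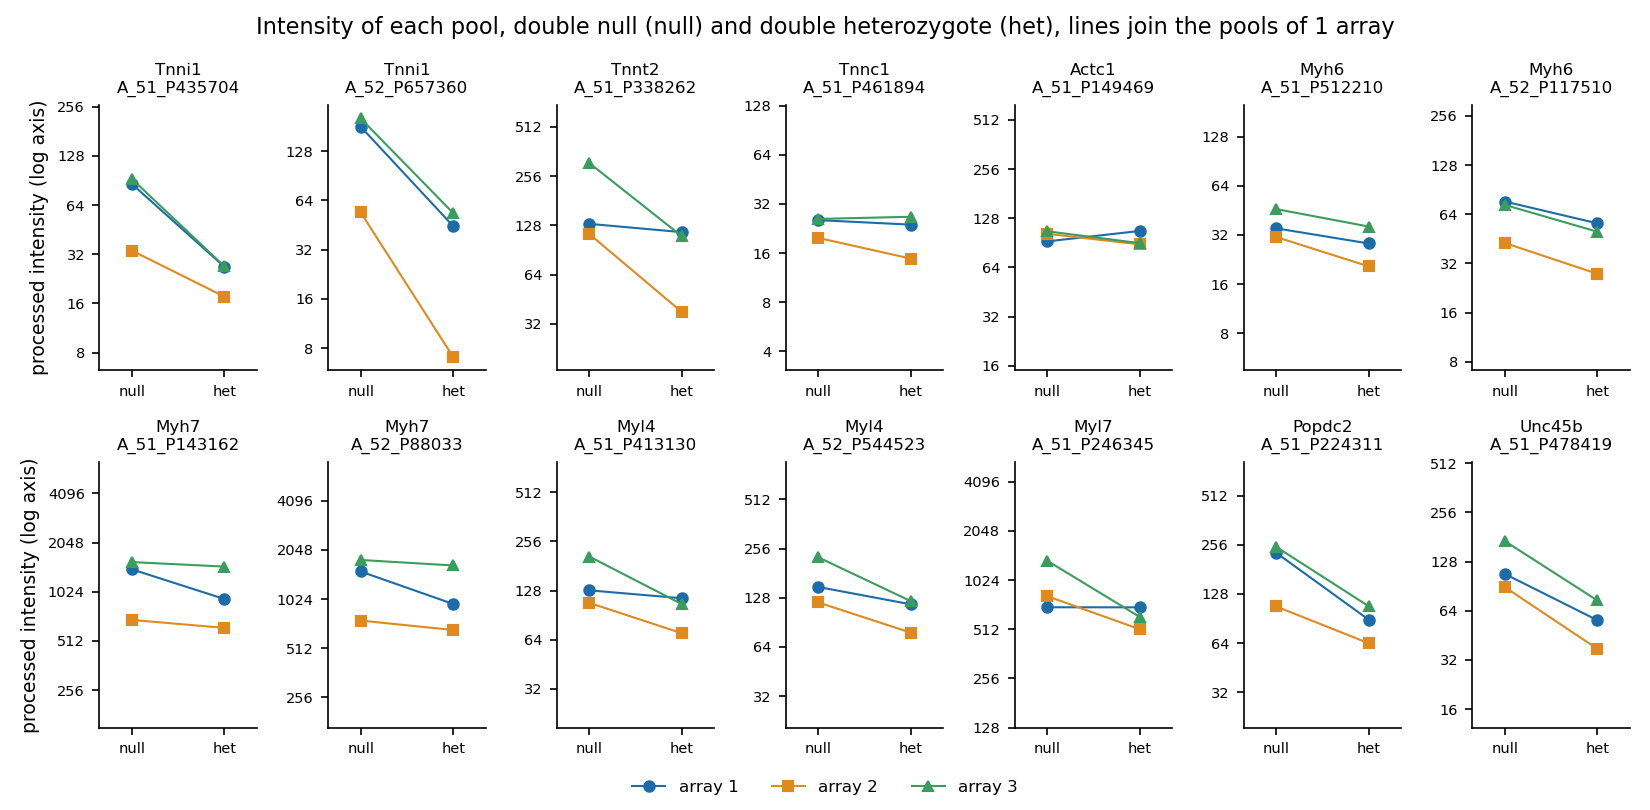
Processed intensity of every pool (y axis, log scale of the same length in all panels) for the 14 kept probes, with double null pools on the left and double heterozygote pools on the right of each panel. Lines join the 2 pools of 1 array. Array 2 is the lowest in both genotypes for all probes but those of Actc1 and Myl7.

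The thick filament genes had smaller mean ratios than Tnni1. Myh6 and Myh7 encode the alpha and beta cardiac myosin heavy chains, the motor proteins, and stand next to each other on chromosome 14. At Myh6 probe A_52_P117510 (chr14:49813005-49813064) the intensities were 76.63, 42.7 and 73.07 in the double null, against 56.35, 27.66 and 50.06 in the double heterozygote. The double null pool was the higher on each array, yet the pools overlapped because array 2 was low in both. Its log2 ratios were 0.19, 0.26 and 0.35 (mean 0.27 ± 0.05, SE, n = 3). The second Myh6 probe, A_51_P512210, had 35.13, 31.09 and 46.08 in the double null and 28.38, 20.56 and 36.02 in the double heterozygote. Its mean log2 ratio was 0.17 ± 0.05 (SE, n = 3), with array values between 0.13 and 0.22.

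Myh7 showed its difference mainly on array 1. Probe A_52_P88033 (chr14:49837275-49837334) had 1509, 755.6 and 1775 in the double null, against 955.1, 661.7 and 1643 in the double heterozygote. Within a genotype the highest pool was 2.35 times the lowest in the double null and 2.48 times in the double heterozygote, more than the 1.24-fold between genotypes. The log2 ratios were 0.65, 0.19 and 0.10 (mean 0.31 ± 0.10, SE, n = 3), and the overlapping probe A_51_P143162 gave 0.59, 0.16 and 0.13.

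The atrial myosin light chains had the opposite order of arrays. Myl7 encodes the regulatory light chain of the atrium and the early heart tube, and its probe A_51_P246345 gave 697.5, 816 and 1344 in the double null. The double heterozygote pools gave 696.9, 511.7 and 609.1. The genotypes did not overlap by count, but the pools of array 1 were nearly equal. The log2 ratios were 0.03, 0.64 and 1.09, with a mean of 0.59 ± 0.18 (SE, n = 3), and without array 1 the probe was called, at 0.87.

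Myl4 encodes the essential light chain of the atrium and of embryonic muscle. At A_52_P544523 the intensities were 149, 119.8 and 226.4 in the double null, against 116.7, 78.29 and 122 in the double heterozygote. The pools overlapped at their edge, the double null of array 2 lying below the double heterozygote of array 3. The log2 ratios were 0.34, 0.49 and 0.79 (mean 0.54 ± 0.09, SE, n = 3), and the call was lost without array 2, at 0.56, and without array 3, at 0.41. Probe A_51_P413130, which shares most of its sequence, gave 0.09, 0.43 and 0.77 (mean 0.43 ± 0.12) and was called only without array 1, at 0.60, among the fits with an array left out.

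Popdc2 and Unc45b are not filament proteins. Popdc2 encodes a membrane protein of the Popeye family, which binds cyclic AMP and is abundant in heart. Its processed intensities were 228.8, 107.3 and 248.6 in the double null, against 89.15, 63.88 and 107.7 in the double heterozygote. Arrays 1 and 3 separated the genotypes clearly, and array 2 was low in both, which made the pools overlap by a narrow margin. Array ratios were 1.01, 0.46 and 0.97 on the log2 scale (mean 0.81 ± 0.11, SE, n = 3; 1.76-fold). Popdc2 was not called without array 3, at a mean of 0.74.

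Unc45b encodes the chaperone that folds the myosin motor domain in striated muscle, together with Hsp90. At A_51_P478419 (chr11:83024545-83024604) the intensities were 107.5, 89.26 and 170.8 in the double null, against 56.02, 37.4 and 73.98 in the double heterozygote. All double null pools lay above all double heterozygote pools, and array 3 was the highest in both genotypes. On the log2 scale the ratios were 0.60, 0.68 and 0.88, with a mean of 0.72 ± 0.07 (SE, n = 3; 1.65-fold). Among the 5 called probes, this one and Tnni1 A_52_P657360 kept their calls without array 3 and when probes brighter than a mean log2 intensity of 15 were left out.

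In all, the pools of the genotypes did not overlap for 4 of the 14 kept probes, both of Tnni1, Myl7 and Unc45b, while 7.20% of all kept probes had all double null pools above all double heterozygote pools. The member genes were dim to moderate, with mean log2 intensities of 6.77 to 10.95 around an all-probe median of 9.66. Of 16031 other probes in that range 55 were called higher, 0.343%, and 31 lower.

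The arrays differed in how strongly the genes read. The median log2 ratio of the 14 probes was 0.26 on array 1, 0.44 on array 2 and 0.78 on array 3, and from the processed intensities 0.40, 0.62 and 0.93. The genes did not follow this order alike. Tnni1 A_52_P657360 and Popdc2 had nearly equal ratios on arrays 1 and 3, the difference being -0.08 for Tnni1 and 0.04 for Popdc2. Myl7 and Tnnt2 lay far lower on array 1 than on array 3, by -1.07 and -0.97, and Myh7 lay higher on array 1, by 0.54.

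**Figure D3:**
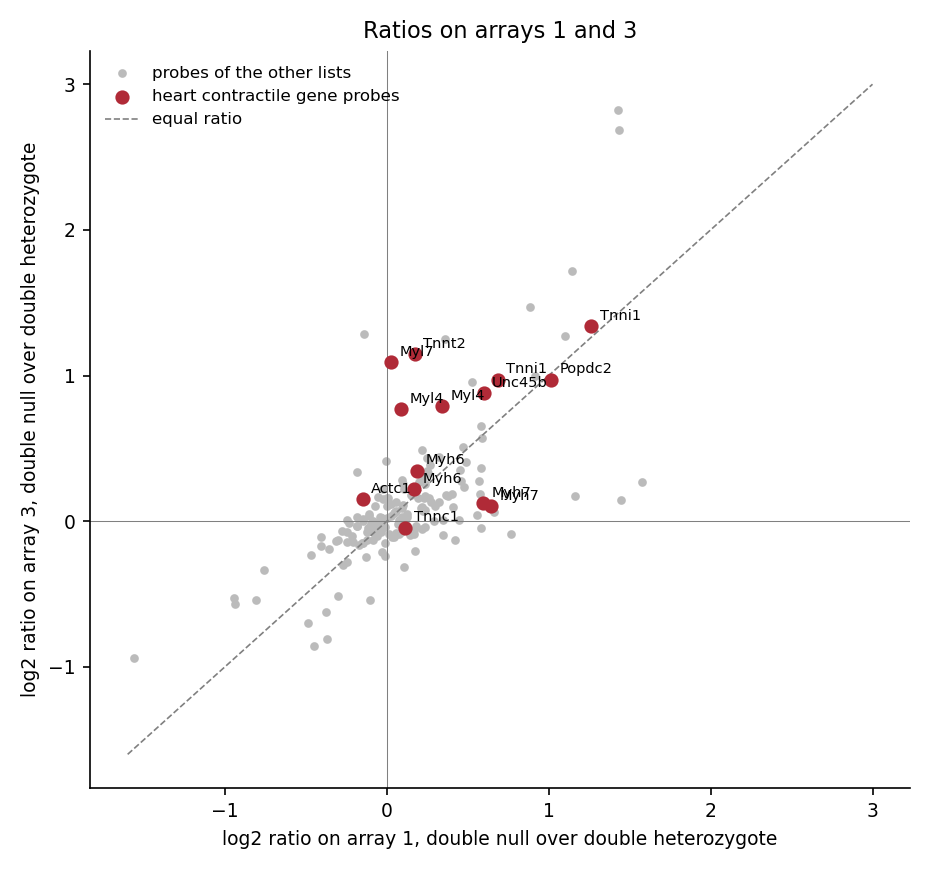
Log2 ratio of double null over double heterozygote on array 3 (y axis) against array 1 (x axis) for the 14 kept probes of the heart contractile genes and, in grey, the probes of the other gene lists. Tnni1 A_52_P657360 and Popdc2 lie near the line of equal ratio, the other Tnni1 probe, Tnnt2, Myl7 and Myl4 above it, and Myh7 below it.

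Taking the brightest probe of each gene, the Euclidean distance between the 3 array ratios was 0.354 for Tnnt2 and Myl7, 0.333 for Myl4 and Unc45b, and 0.589 for Tnni1 and Popdc2. It was 1.97 for Tnni1 and Actc1, the most distant pair. These distances describe 3 arrays and no test was made of them. Among 12990 other named genes the 5 nearest to Tnni1 were Myod1 (distance 0.521), Rpl23 (0.539), Rpl3 (0.556), Ldha (0.581) and Dpf1 (0.594). Myod1 encodes the skeletal muscle determination factor and Dpf1 a chromatin remodelling subunit. Rpl23 and Rpl3 encode ribosomal proteins and Ldha lactate dehydrogenase. Their array ratios after normexp and loess lay between 0.83 (Ldha, array 3) and 1.33 (Myod1, array 2). Nearness in the processed intensities was not examined. The 5 nearest to Actc1 were Dtx4, Urb1, Faf1, Elavl4 and Dsel, at distances between 0.00436 and 0.0352, all with ratios around 0.

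Apart from the ratio, the 2 pools of array 2 were low together for most of these probes. The highest pools shared an array for some probes, such as Unc45b on array 3. For others, such as Tnnt2 and Myl7, they did not. The processed intensity was lowest on array 2 in both genotypes for 12 of the 14 kept probes, all but those of Actc1 and Myl7, while 12.8% of all kept probes had this order. With channels scaled to the same average intensity across arrays it was 11 of 14, against 15.3% of all. For Myh7 A_51_P143162, for example, array 2 had 689.1 in the double null and 615.7 in the double heterozygote, against 1406 and 925.5 on array 1 and 1557 and 1461 on array 3. Whether the 2 pools of an array shared more than the hybridisation, such as a litter or a dissection day, is not stated in the labels.

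Other genes of striated muscle and of other tissues were read from 12 lists, in which limma called 8 of 166 kept probes and 61 had an unadjusted p under 0.05. Over all kept probes the shares were 1.49% called and 20.2% at that unadjusted p. Of 43 other sarcomere and myofibril genes 23 had a kept probe, with 35 kept probes in all, and 0 were called in either direction. Without array 1, 1 was called higher, and without array 2, 2 were called lower. Their median log2 ratio was 0.06, and 22 of the 35 had a mean above 0. Picked after the values were seen, Mybpc3 at 0.60 was the highest and 2 Mylk probes at -0.45 and -0.43 the lowest. The pools were lowest on array 2 in both genotypes for 10 of the 35. The brightest were the tropomyosin genes Tpm4 at 0.09 ± 0.05 and Tpm3 at -0.07 ± 0.06 (SE, n = 3), both also expressed outside muscle. Among the 20 sarcomere and myofibril genes with no kept probe were Myl2, Acta1, Csrp3, Ldb3 and Myom1. Having no kept probe means that none cleared background in 1 channel on all 3 arrays. It does not show that a gene was silent. Of 27 heart membrane, calcium and metabolic genes 17 had a kept probe, 0 of 25 kept probes were called, and the median was 0.05. There the 2 brightest probes were those of the gap junction gene Gja1 at -0.04 ± 0.05 and the calcium pump gene Atp2a2 at 0.000096 ± 0.07 (SE, n = 3). Of the 25 probes 15 had a mean above 0 and the others a mean below it. Named after their values were seen, Jph2 at 0.34 and Hrc at 0.27 were the highest and Bves at -0.13 the lowest.

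Nonmuscle relatives of the members, such as Myh9, Myl6 and Actb, had 0 of 12 kept probes called and a median of -0.02. The light chain gene Myl6 gave 0.26 ± 0.05 and 0.04 ± 0.05 at its 2 probes. Of the cardiac progenitor transcription factors 11 of 15 had a kept probe, while Gata4, Gata5, Tbx5 and Hand2 did not. Of the 14 kept probes 0 were called, at a median of 0.17. Of these probes 11 of 14 had a mean above 0, and the other 3 were those of Mef2a. The brightest were the serum response factor gene Srf at 0.17 ± 0.06 and a Mef2a probe at -0.06 ± 0.05 (SE, n = 3). Named after their values were seen, Gata6 was at 0.74, Myocd at 0.61, Mef2c at 0.36, Nkx2-5 at 0.32 and Hand1 at 0.31. Without array 2, 2 of the 14 were called higher.

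Among genes of protein folding that serve myosin and actin, 3 of 14 kept probes were called higher, at a median of 0.16. They were the chaperone gene Hsp90ab1 at 0.62 ± 0.05 (limma adjusted p = 0.00458) and the chaperonin subunit genes Cct5 at 0.57 ± 0.05 (adjusted p = 0.00478) and Cct2 at 0.50 ± 0.05 (adjusted p = 0.00651). These probes were far brighter than the heart genes, with mean log2 intensities of 16.79, 16.57 and 16.62, and from the processed intensities their log2 ratios were 0.22, 0.22 and 0.14 and none was called. Without array 3 the list had 1 call. A second Hsp90ab1 probe gave -0.15 and a second Cct2 probe 0.08. Unc45a, the general counterpart of Unc45b, was not called.

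**Figure D4:**
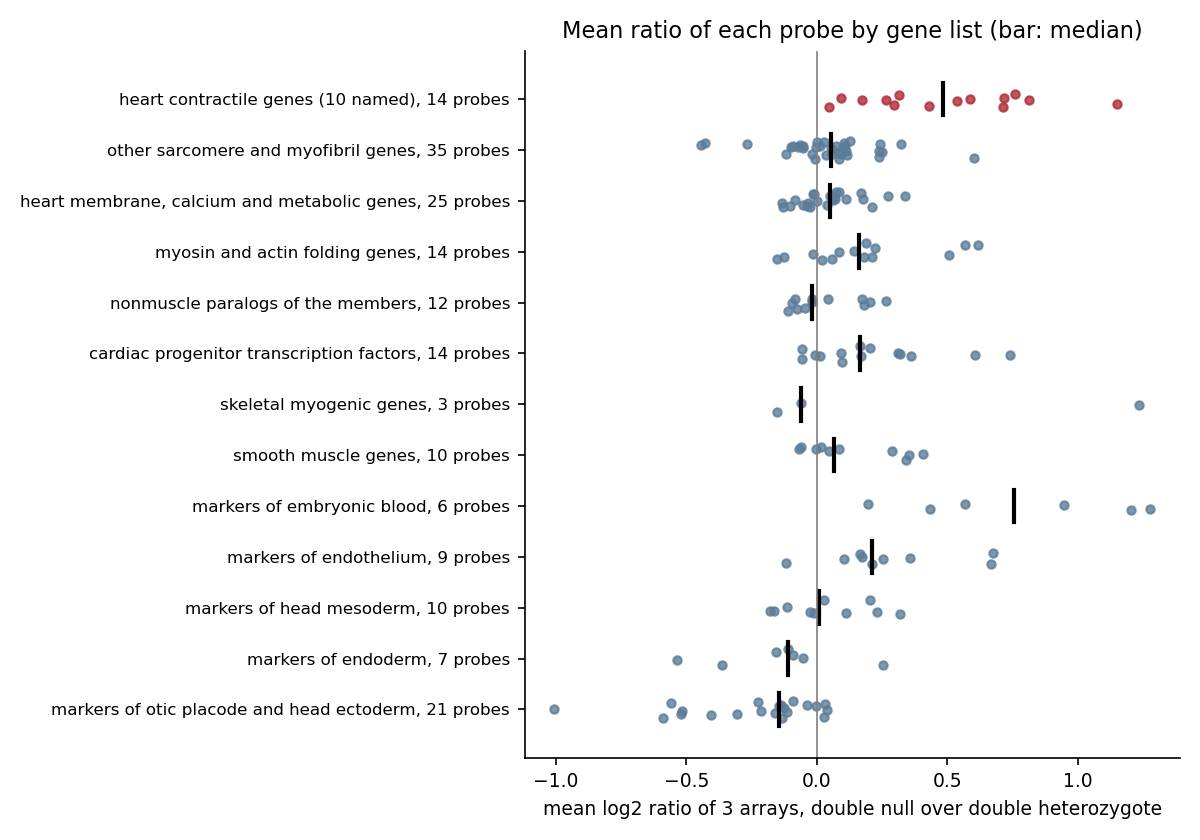
Mean log2 ratio of double null over double heterozygote (x axis) of each kept probe, by gene list (y axis), with a bar at the list's median. The heart contractile genes, chosen with these ratios in view, have a median of 0.48, and embryonic blood is the other list with a median above 0.4.

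Markers of other tissues were read beside these values. Embryonic blood markers had a median log2 ratio of 0.76 over 6 kept probes of 4 of 8 genes. With all arrays 0 were called, and without array 2, 4 of the 6 were called higher. Their array medians were 1.01, -0.36 and 1.59, and their summed processed intensity ranged from 411.7 to 7189 in the double null and from 623.4 to 1205 in the double heterozygote. The embryonic globin gene Hbb-bh1 had log2 ratios of 1.43, -0.51 and 2.69 at its brightest probe. Among the blood genes without a kept probe were Hbb-y, Alas2 and Gata1. Endothelial markers had 0 of 9 kept probes called, a median of 0.21 and sums of 5172 to 5789 in the double null and 4155 to 5051 in the double heterozygote. Of these probes 8 of 9 had a mean above 0. The 2 brightest were Egfl7 at 0.16 ± 0.06 and a Flt1 probe at -0.12 ± 0.06 (SE, n = 3), and the other Flt1 probes were at 0.17 and 0.10. The highest, named after their values were seen, were Emcn and Cdh5, both at 0.67 with their largest ratio on array 1.

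Head mesoderm markers had 0 of 10 called and a median of 0.01, with the brightest, Prrx2, at -0.02 ± 0.05 and Tbx1 at -0.18 ± 0.05. Their array medians were 0.36, -0.17 and -0.04, and 5 of the 10 probes had a mean above 0. Among those 5, named after their values were seen, were the Prrx1 probes at 0.20, 0.23 and 0.32. Of 9 skeletal myogenic genes 3 had a kept probe, and of their 3 probes 1 was called, Myod1 at 1.24 ± 0.06 (limma adjusted p = 0.00302). Myf5, Myf6 and Myog had no kept probe. Smooth muscle genes had 1 of 10 called, the actin-binding protein gene Synpo2 at 0.35 ± 0.06 (adjusted p = 0.0476), at a median of 0.07. For that dim Synpo2 probe only 2 of 3 double heterozygote pools cleared background, so it passed the filter by its double null signal. The other, brighter Synpo2 probe cleared background in all pools, gave 0.34 ± 0.06 and was not called (limma adjusted p = 0.0517). Endoderm markers had 1 of 7 called lower, Sox17 at -0.53 ± 0.07 (adjusted p = 0.0155), at a median of -0.11. Otic placode and head ectoderm markers had 2 of 21 called lower, among them Hmx2 at -0.59 ± 0.08 (adjusted p = 0.023), at a median of -0.14. Without array 3 the calls of Synpo2, Sox17 and Hmx2 were lost, and without array 1 the ectoderm markers had 4 called lower. Without array 2 they had 3, and the smooth muscle and endoderm lists 0. The summed intensity of the ectoderm markers was 64340 to 77280 in the double null and 79910 to 87700 in the double heterozygote. The keratin genes Krt8 and Krt18 had the brightest probes of the list and weighed most in these sums. Their log2 ratios were -0.16 and -0.11 (Krt8) and -0.04 (Krt18). The part of blood, endothelium or a lower share of otic ectoderm in the ratios of the heart genes was not tested.

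The promoters of the members were searched for motifs of muscle gene control in the RefSeq promoter windows of GRCm38.p6, which held all 10 genes and 27025 genes in all. A CArG box, the binding motif of serum response factor, was found in Actc1 and Myl7, and in 1.81% of all genes. It reads as a CArG box on both strands. Both are shown as the 150 bases before the RefSeq start site, 5′ to 3′ on the gene's strand, with the CArG box in capitals.
Actc1, chr2:114052876-114053025, minus strand: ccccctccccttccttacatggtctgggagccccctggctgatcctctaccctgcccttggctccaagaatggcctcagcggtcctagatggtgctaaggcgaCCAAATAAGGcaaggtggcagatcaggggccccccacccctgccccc
Myl7, chr11:5898783-5898932, minus strand: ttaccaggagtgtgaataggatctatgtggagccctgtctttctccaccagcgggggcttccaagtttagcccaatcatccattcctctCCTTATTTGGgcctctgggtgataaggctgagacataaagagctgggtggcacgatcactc

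The box begins 47 bases before the start site in Actc1 and 61 bases before it in Myl7. These 2 genes differed in their ratios, Actc1 at 0.05 and Myl7 at 0.59 on the log2 scale. The GATA motif GATAAG, searched on both strands, was in Myl7 and Popdc2 and in 8.58% of all genes. The E-box CAGCTG, which reads the same on both strands, was in Tnni1 and Tnnt2 and in 18.3%. TATAAA, searched on the gene's strand, was in Actc1 and Myh6 and in 9.77%, and a MEF2 site was in 0 of 10 genes and in 3.7% of all. The windows run past the start site. Both TATAAA matches lay after it, from base 34 in Actc1 and from base 2 in Myh6. A match describes letters in these windows and says nothing of binding, and no match says only that the letters are not there.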

How the data were processed

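The authors read the spots with Agilent Feature Extraction 9.5.1.1, per the submitters' processing notes. Mean and background intensity per channel, processed intensity and a log10 ratio of Cy5 over Cy3 are in the deposited files. Per the file headers the positions are on mm7. The deposited series table holds log2 ratios that equalled the scanner's within 2.01e-06 after conversion.

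Background was corrected with normexp (offset 50), and log2 ratios of double null over double heterozygote were normalized by loess (span 0.3) with limma 3.58.1 in R 4.3.3. Control spots and 143 to 175 outlier spots per array were left out, and spots of a probe were averaged. Probes well above background in 1 channel on all 3 arrays were kept. Their means were tested against 0 with lmFit and eBayes, adjusted by Benjamini-Hochberg over 25506 probes, of which 379 were called at 0.05. Errors are moderated standard errors. The fit was tested on simulated ratios.

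Members, lists and tests were chosen with earlier results of these data known. Named were all 10 members, up to 4 called members of each other list or else its 2 brightest probes, and the 5 genes nearest to Tnni1 and to Actc1. A gene that met this rule is not reported here by name, and the counts include it. Distances used RefSeq symbols. Depth in counts does not apply to arrays, whose number limits precision. The alternatives were the offset, the scanner's processed intensity, median centring, span 0.1, other filters and probe rules, outliers kept, an intensity trend, separate channels, the series table and each array left out.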

Additional observations from a re-analysis of the deposited data

How the results depend on the processing

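Of 379 probes called (81% higher), 5 member probes and 8 in the other lists, an offset of 16 gave 199 (90.5% higher), 3 and 5. Span 0.1 gave 31, 2 and 1, and the limit to mean log2 intensity 15, chosen after seeing the data, 21, 2 and 1. Median centring gave 19476 (17196 higher), 12 and 111, with the median of all kept probes at 0.33 and of the members at 0.69. It turned Tnnc1 to -0.18 and Myh6 A_51_P512210 to -0.0065. limma called 0, 0 and 0 with the processed signals (4417, 10 and 55 at unadjusted p under 0.05) and with the series table (4469, 10 and 57), against 5160, 12 and 61 before. An intensity trend gave 993 (64% higher) and 22 in the lists, and without a filter the lists had 14. With both channels required above background on all arrays the counts were 408, 4 of 12 kept member probes, and 9. Tnni1 A_52_P657360, with the largest member ratio, and Tnnc1 were then left out. The pairing of pools on an array is in the ratio. With separate channels and no replicate block the counts were 873 (66.4% higher), 5 and 15. With 1 array left out they were 82 to 309, 2 to 8 and 2 to 15, lowest without replicate 3, and Actc1 ranged from -0.0050 (without replicate 3) to 0.15. The members' median lay between 0.40 and 0.62 with 1 array left out, and at 0.46 to 0.69 otherwise. The cause of these changes was not tested. The 5 called probes were above 0 in all 73 values under the alternatives. They were already above 0 on each array, so leaving out an array or changing the filter could not turn their sign. The 73 values are therefore no independent support. Signals near background limit Tnnc1 and the double heterozygote level of Tnni1.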

Other observations

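Outside the naming rule, and chosen after their values were seen, 3 further heart genes had high ratios without being called. They are high picks from lists that also held probes below 0, such as those of Mylk and Mef2a, and are no support for the members' ratios. Mybpc3, which encodes cardiac myosin-binding protein C, had processed intensities of 41.53, 52.48 and 113.2 in the double null, against 51.97, 21.88 and 20.53 in the double heterozygote. Its log2 ratios were -0.14, 0.66 and 1.29 (mean 0.60 ± 0.23, SE, n = 3), so array 1 had the lowest value. Gata6, a transcription factor gene of heart and endoderm, had 426.7, 216.1 and 502 in the double null, against 207.9, 170 and 225.8 in the double heterozygote. Its log2 ratios were 0.91, 0.32 and 0.99 (mean 0.74 ± 0.13), lowest on array 2. Myocd, which encodes the muscle coactivator myocardin, had 57.15, 28.37 and 107.4 in the double null, against 26.96, 14.33 and 36.36 in the double heterozygote, where it was above background on 2 of 3 arrays. Its log2 ratios were 0.53, 0.34 and 0.95 (mean 0.61 ± 0.11).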
